A study of Mus musculus with 10 samples.

Results

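Histones are the proteins that DNA wraps around. Of the 22180 genes with a probe set of their own on the array, 35 carried a histone symbol. They were taken by symbol (H1f, H2ac, H2bc, H2az, H2ax, H3c, H3f, H4c or Macroh2a), with the probe set of the highest mean over all 10 arrays where a gene had more than 1, and no filter on dim genes. Of these, 25 were replication-dependent genes (4 of H1, 6 of H2A, 8 of H2B and 7 of H4) and 10 were variant genes (4 of H1 and 6 of H2A). No H3 gene had a probe set of its own. The platform listed 75 symbols under the rule, and 40 of them, every H3 symbol included, appeared only on probe sets that carry several gene symbols, most of them of histone genes. These shared probe sets are described apart.

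The arrays measured total RNA from the ciliated lining of the nasal passages, the respiratory epithelium, of mouse embryos at E16.5, cut by laser capture from sections of tissue fixed in formalin and embedded in paraffin. There were 5 wild-type (WT) embryos and 5 triple knockout (TKO) embryos that lacked miR-34a (miR-34a-/-), miR-34b and miR-34c (miR-34b/c-/-), and the miR-449 cluster (miR-449a/b/c-/-). The label names no Cre or cell type that would limit the deletions. Of the WT embryos 4 were labelled female and 1 male (WT 3), and of the TKO embryos 2 were female and 3 male (TKO 2, TKO 4 and TKO 5). The sources used here give neither the strain nor the litters. Each embryo gave 1 array, and the number of arrays limits the precision.

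Replication-dependent histone genes lie in clusters, are transcribed in S phase when new DNA must be packaged, and give mRNAs that end in a stem-loop in place of a poly(A) tail. Most variant histone genes lie outside the clusters (H1f6 is in the one on chromosome 13), are mostly expressed throughout the cell cycle, and give proteins placed at particular sites or in particular cells. The airway and nasal epithelium at this age holds dividing cells and cells that have left the cycle to become multiciliated. miR-34 and miR-449 are microRNAs abundant in multiciliated cells and are known to target regulators of the cell cycle.

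The mature 5p microRNAs of 4 of the deleted genes are shown because they are what the TKO embryos lack. They come from RefSeq (GRCm38.p6), and capitals mark the seed, bases 2 to 8, which is the same in all 4. They lie at chr4:150068473-150068494 (plus strand), chr9:51103610-51103632 (minus strand), chr13:113037549-113037570 (plus strand) and chr13:113036008-113036028 (plus strand), in the order below.
mmu-miR-34a-5p: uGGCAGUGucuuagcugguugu
mmu-miR-34b-5p: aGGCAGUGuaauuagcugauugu
mmu-miR-449a-5p: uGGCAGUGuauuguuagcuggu
mmu-miR-449c-5p: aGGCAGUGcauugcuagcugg

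The promoters of the H4 genes H4c8 and H4c1 are shown because these were the only replication-dependent genes that passed the test, and that of H4c12 because it encodes the same histone and did not pass. Each is 300 bases of RefSeq (GRCm38.p6), from 250 bases before the annotated start to 50 after it, on the gene's own strand. H4c8 is at chr13:23530794-23531093 (plus strand), H4c1 at chr13:23761200-23761499 (minus strand) and H4c12 at chr13:21750504-21750803 (minus strand). Capitals mark the letters TGACGTCA, TTTCCCGC and TATAA, which are taken up after the measurements.
H4c8: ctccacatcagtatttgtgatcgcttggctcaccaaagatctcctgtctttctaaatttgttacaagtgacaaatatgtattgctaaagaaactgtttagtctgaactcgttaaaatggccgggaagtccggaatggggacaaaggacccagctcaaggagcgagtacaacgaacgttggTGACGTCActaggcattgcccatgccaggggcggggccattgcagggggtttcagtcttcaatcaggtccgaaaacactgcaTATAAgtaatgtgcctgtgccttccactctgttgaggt
H4c1: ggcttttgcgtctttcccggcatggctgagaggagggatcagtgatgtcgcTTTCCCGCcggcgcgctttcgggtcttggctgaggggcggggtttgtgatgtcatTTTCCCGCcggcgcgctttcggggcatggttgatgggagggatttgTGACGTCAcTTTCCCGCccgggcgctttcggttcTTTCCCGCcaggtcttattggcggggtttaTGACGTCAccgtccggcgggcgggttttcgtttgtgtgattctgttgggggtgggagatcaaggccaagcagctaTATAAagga
H4c12: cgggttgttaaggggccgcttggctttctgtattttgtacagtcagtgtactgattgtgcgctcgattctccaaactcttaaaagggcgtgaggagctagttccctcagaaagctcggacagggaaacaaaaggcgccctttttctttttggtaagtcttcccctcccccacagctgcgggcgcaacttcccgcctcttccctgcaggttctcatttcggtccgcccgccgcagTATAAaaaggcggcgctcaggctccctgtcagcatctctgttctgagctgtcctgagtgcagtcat

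Values are given on the log2 scale as RMA made them, so that a difference of 1 is 2-fold, and they compare arrays for 1 probe set, not 1 gene with another. Over the 25335 probe sets with a symbol, pairs of arrays had correlations of 0.98 to 0.99. The probe sets of Mir449c (6.80 to 7.56 in WT, 3.16 to 4.39 in TKO) and Mir449a (6.86 to 7.56 in WT, 5.06 to 5.76 in TKO) did not overlap between genotypes. Nor did those of Mir449b, which stayed bright (12.13 to 12.23 in WT, 11.67 to 12.08 in TKO, log2 change -0.33, limma adjusted p = 0.0318), and Mir34b (5.61 to 5.98 in WT, 5.40 to 5.57 in TKO, change -0.28, 0.166). Those of Mir34a (3.46 ± 0.13 and 3.40 ± 0.26, SD, n = 5 each) and Mir34c were dim in WT and TKO alike. The sources used here do not say where the deletions lie relative to the probes, so the signal left at Mir449b is not a check of the label. Xist was at least 10.8 on every array labelled female and at most 5.10 on every array labelled male. Foxj1, the master regulator of motile cilia, was at 10.7 to 11.0 in WT and 10.9 to 11.1 in TKO. The epithelial adhesion gene Cdh1 was at 10.4 to 10.6 in WT and 10.3 to 10.5 in TKO.

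Of the 35 histone genes, 3 rose in the TKO epithelium and none fell. They were the replication-dependent H4 genes H4c8 (2.95-fold) and H4c1 (1.68-fold) and the variant H2ax (1.36-fold). That is 3 of 35 against 3.51% of all genes, of which 2.82% were higher and 0.69% lower (limma with genotype and sex, Benjamini-Hochberg adjusted over 22180 genes, threshold 0.05). At an unadjusted limma p under 0.05 there were 5 histone genes, all higher, against 17.3% of all genes. These counts were not tested against the background, and nothing is read from them about histone genes as a set. In bulk tissue, fewer or more cells of a type and less or more RNA per cell cannot be told apart. Folds and log2 changes come from the model with sex, and means and SDs are unadjusted, so the difference of the means can depart a little from the change given. Single-array values are listed in the order of the replicate numbers 1 to 5.

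For the 32 histone genes that did not pass, the 95% interval of the change lay within 1.5-fold in either direction. The median log2 change was 0.025 over the 25 replication-dependent genes (range -0.18 to 1.56), 0.023 over the 10 variant genes (range -0.27 to 0.45) and -0.011 over all genes. Of the replication-dependent genes 16 lay above 0 and 9 below, and of the variant genes 6 lay above and 4 below. Without H4c8 and H4c1 the replication-dependent median was 0.022, with a range of -0.18 to 0.29. Members are not replicates, so the classes were not tested against each other. Per array, after centring each gene on its mean, the median over the replication-dependent genes ran from -0.10 to 0.079 in WT and from -0.016 to 0.11 in TKO, and over the variant genes from -0.098 to 0.069 and from -0.11 to 0.073. The genotypes overlapped in both classes.

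**Figure D1:**
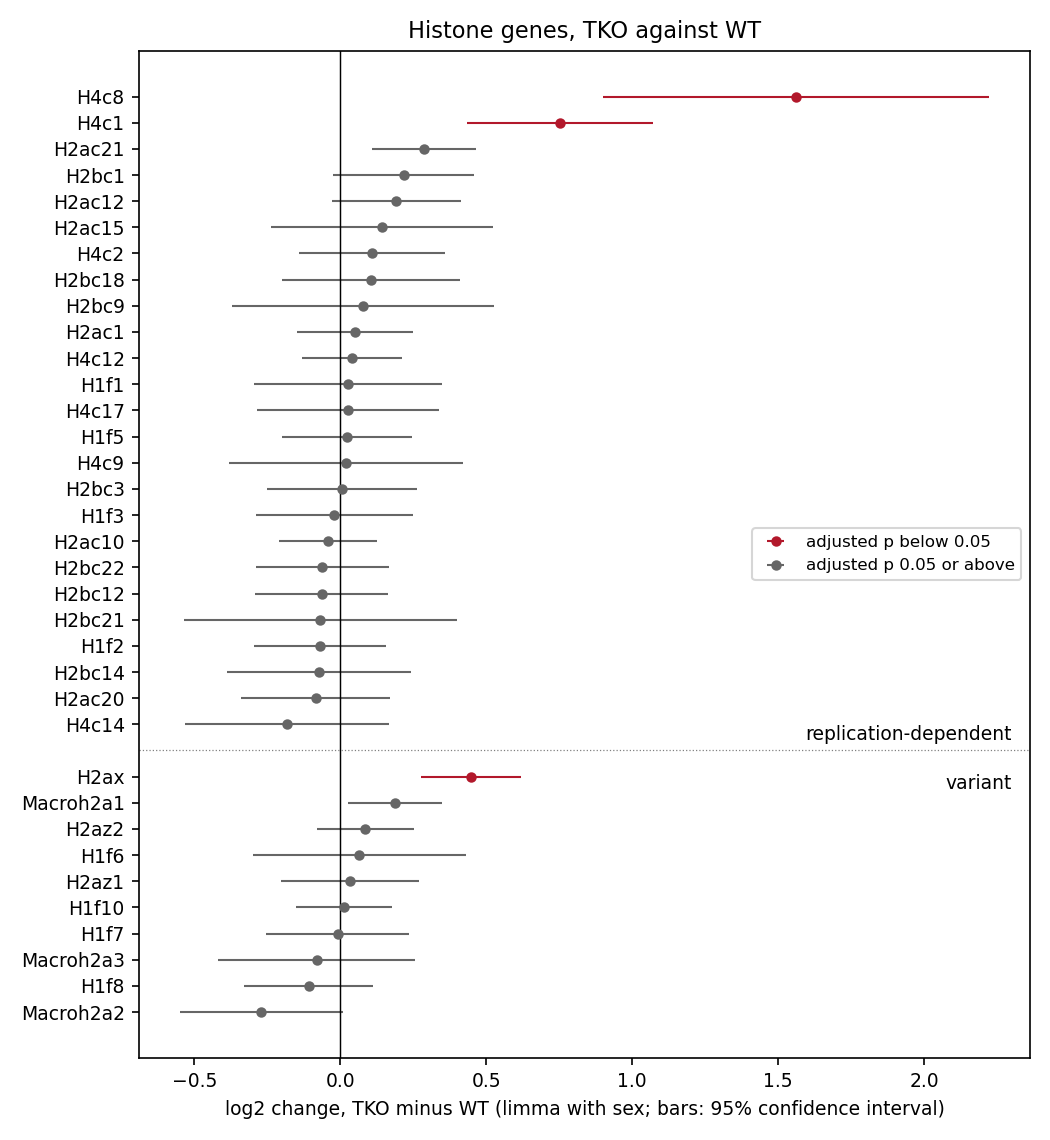
Log2 change, TKO minus WT, from limma with sex, for the 35 histone genes grouped by class, with bars for the 95% interval; genes past an adjusted p of 0.05 are marked. H4c8 (1.56), H4c1 (0.75) and H2ax (0.45) stand to the right of 0, and the other 32 genes lie between -0.27 and 0.29.

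H4c8, one of many genes for the same H4 protein, had the largest change. Its WT arrays were at 4.15, 3.88, 4.55, 4.88 and 3.27 and its TKO arrays at 5.19, 6.07, 6.19, 6.28 and 5.51. Every TKO array lay above every WT array, but the WT mean of 4.14 ± 0.62 (SD, n = 5) was under 4.58, the 25th percentile of the mean level of all genes, and the WT arrays were the more scattered. The log2 change was 1.56 (SE 0.30, 95% interval 0.90 to 2.22, limma adjusted p = 0.0151), which ranked 20 by size among all genes, and the TKO mean was 5.85 ± 0.47 (SD, n = 5).

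H4c1, a second gene for H4, was at 4.51, 4.84, 4.82, 4.45 and 4.77 in WT and at 5.69, 5.14, 5.38, 5.64 and 5.18 in TKO. Here too every TKO array was above every WT array, and the spread within a genotype was smaller than for H4c8. The means were 4.68 ± 0.18 and 5.41 ± 0.25 (SD, n = 5 each), with a log2 change of 0.75 (SE 0.15, 95% interval 0.43 to 1.07, limma adjusted p = 0.0151). H4c8 and H4c1 were the only histone genes whose arrays did not overlap, 2 of 35 against 4.22% of all genes that lay apart with TKO higher. For each the exact two-sided permutation p was 0.00794, the smallest that 5 against 5 can give, and 0.132 after adjustment over all genes. The permutation test, unlike the limma model, took no account of sex. Without WT 3 the changes were 1.65 (H4c8, limma adjusted p = 0.0943) and 0.89 (H4c1, just over the threshold); without TKO 3 they were 1.27 (0.0956) and 0.78 (0.0644); and without TKO 1 that of H4c1 was 0.62 (0.0780). With a score of non-epithelial markers as a covariate they were 1.5 (0.0938) and 0.70 (0.102), so the calls but not the direction ended under each of these settings.

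The other 5 H4 genes did not pass. H4c14, which lies in the histone cluster on chromosome 3, was at 5.82, 6.05, 5.74, 5.68 and 6.15 in WT and at 6.24, 5.35, 5.48, 5.50 and 5.21 in TKO. Its TKO arrays lay below all WT arrays but for TKO 1, which was above them all, and the log2 change was -0.18 (limma adjusted p = 0.632). The bright H4c12 lay between 9.76 and 10.02 in both genotypes, with a change of 0.040. H4c2 changed by 0.11, H4c9 by 0.021 and H4c17 by 0.025, none of them past the threshold, and H4c2 and H4c17 lay under the 25th percentile.

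**Figure D2:**
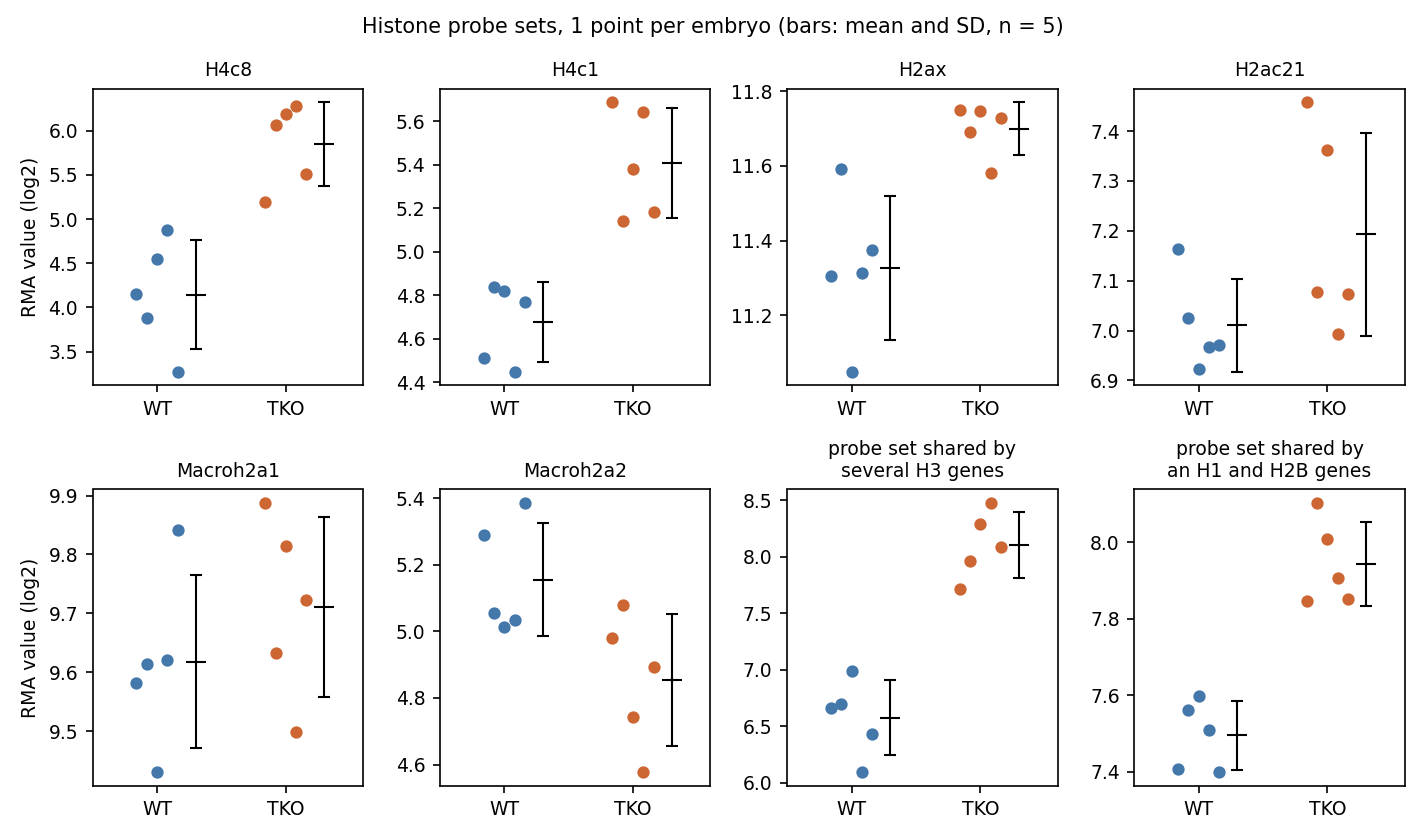
RMA value (log2) on each of the 10 arrays for 6 histone genes and for 2 probe sets shared by several histone genes, WT and TKO side by side, with the genotype mean. H4c8, H4c1 and both shared probe sets have every TKO array above every WT array, while the arrays of H2ax, H2ac21, Macroh2a1 and Macroh2a2 overlap.

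None of the 4 replication-dependent genes of the linker histone H1, which binds the DNA between nucleosomes, passed the test. H1f5, the brightest replication-dependent H1 gene, was at 10.70, 10.61, 10.35, 10.31 and 10.77 in WT and at 10.46, 10.58, 10.49, 10.62 and 10.67 in TKO, and its log2 change was 0.022 (95% interval -0.20 to 0.24). H1f2 was at 10.41, 10.59, 10.09, 10.26 and 10.28 in WT and at 10.31, 10.29, 10.01, 10.30 and 10.33 in TKO, a change of -0.068 (limma adjusted p = 0.810). The genotypes overlapped at both genes. H1f1 and H1f3 had changes of 0.026 and -0.020.

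None of the 6 replication-dependent H2A genes passed the test. H2ac21 came nearest, with WT arrays at 7.16, 7.03, 6.92, 6.97 and 6.97 and TKO arrays at 7.46, 7.08, 7.36, 6.99 and 7.07. The highest TKO arrays were TKO 1 and TKO 3, which are the female TKO embryos, and the 3 male TKO arrays lay within the WT range. The log2 change with sex in the model was 0.29 (SE 0.081, limma adjusted p = 0.0793), and with the dimmer 50% of genes left out before the fit the adjusted p was 0.0434. A second, dimmer probe set of the gene had a change of 0.12 (limma adjusted p = 0.690). The bright H2ac10 was at 10.34, 10.37, 10.18, 10.22 and 10.45 in WT and at 10.25, 10.36, 10.17, 10.16 and 10.36 in TKO, a change of -0.042, and H2ac20 was at 7.06, 6.59, 6.63, 6.54 and 7.0 in WT and at 6.71, 6.53, 6.80, 6.47 and 6.43 in TKO, a change of -0.084. H2ac12, H2ac15 and H2ac1, the last known for its expression in testis, had changes of 0.19, 0.14 and 0.050.

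None of the 8 H2B genes passed either, and their log2 changes ran from -0.074 to 0.22. H2bc1, the H2B of the testis, lay under the 25th percentile of all genes, at 2.58, 2.62, 2.12, 2.43 and 2.16 in WT and at 2.52, 2.42, 2.78, 2.36 and 2.29 in TKO, with a change of 0.22 (limma adjusted p = 0.345). H2bc14 was at 4.81, 4.55, 4.82, 4.48 and 4.90 in WT and at 4.84, 4.42, 4.44, 4.68 and 4.99 in TKO, with a change of -0.074. The brighter H2bc3 and H2bc18 had changes of 0.006 and 0.10, and H2bc9, H2bc12, H2bc21 and H2bc22 had 0.078, -0.064, -0.068 and -0.062. The intervals of these changes all held 0, and the arrays of the genotypes overlapped at all 8 genes.

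**Figure D3:**
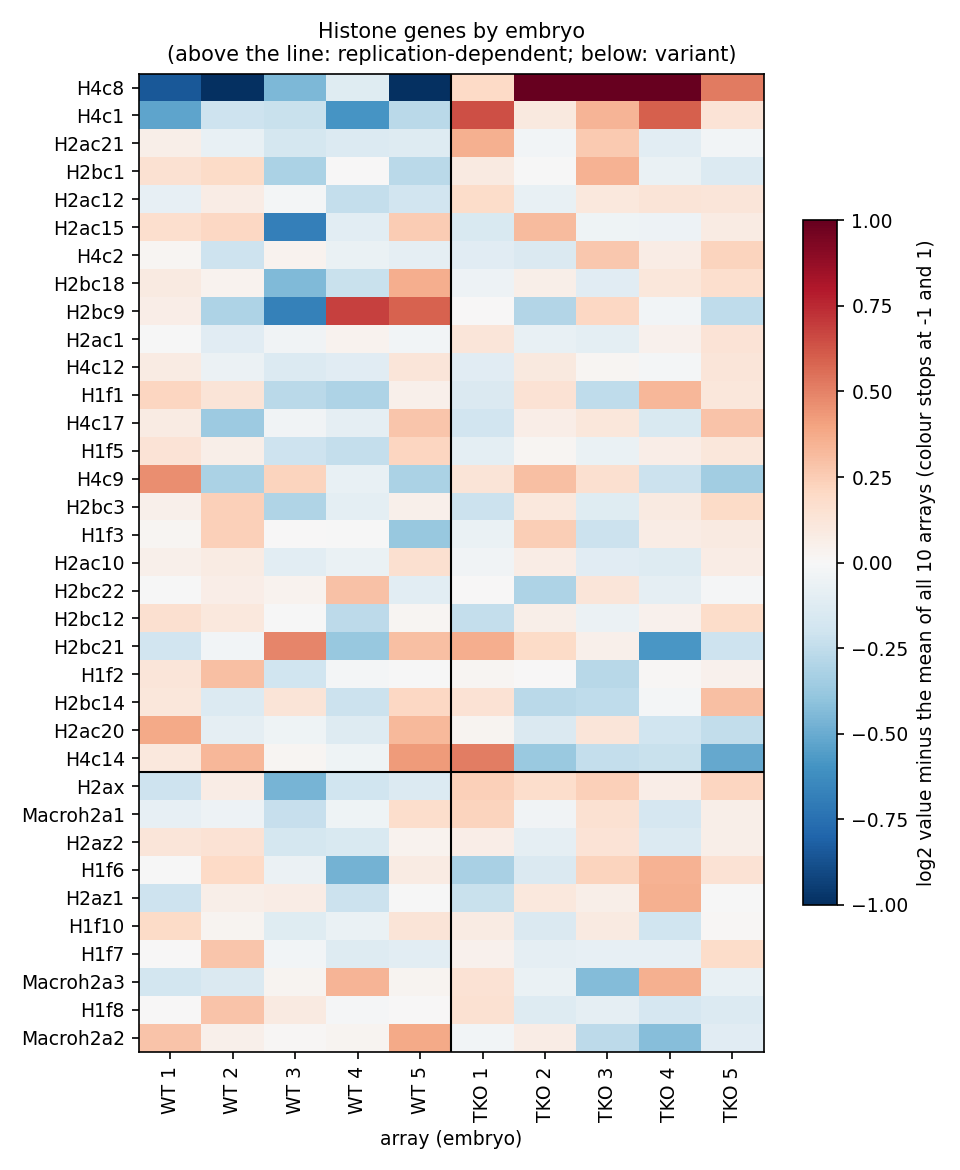
Each of the 35 histone genes (rows, by class) on each of the 10 arrays (columns, WT then TKO), as the log2 value minus the gene's mean over all arrays. Rows of 1 colour in WT and the opposite in TKO are those of H4c8 and H4c1; in the other 33 rows the arrays of the genotypes overlap. Colours stop at -1 and 1.

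Genes without a probe set of their own were read from 45 shared probe sets, of which 3 repeat the values of another, leaving 42. These shared probe sets also carried 15 of the 35 members that had a probe set of their own. In a fit over all 25335 probe sets with a symbol, 2 of the 42 rose and none fell, against 2.7% of these probe sets that were higher. The larger change was at a probe set shared by 8 replication-dependent H3 genes, for the histone whose tail carries many of the known regulatory marks. Its WT arrays were at 6.66, 6.70, 6.98, 6.09 and 6.43 and its TKO arrays at 7.72, 7.96, 8.29, 8.48 and 8.09. The genotypes lay well apart, with means of 6.57 ± 0.33 and 8.11 ± 0.29 (SD, n = 5 each) and a log2 change of 1.41, or 2.65-fold (SE 0.17, limma adjusted p = 0.00131). Without WT 3 the change was 1.53 (limma adjusted p = 0.0132). The other H3 probe sets shared by 8 histone genes had log2 changes from -0.21 to 0.10, none past the threshold.

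The other was shared by 1 H1 and 3 H2B genes, with WT arrays at 7.41, 7.56, 7.6, 7.51 and 7.40 and TKO arrays at 7.85, 8.10, 8.01, 7.91 and 7.85. These did not overlap either, and the log2 change was 0.42, or 1.34-fold (SE 0.080, limma adjusted p = 0.0158). Without WT 3 it was 0.46 (limma adjusted p = 0.0896). Which of the genes on a shared probe set the signal came from cannot be read from the array. The remaining 11 probe sets of replication-dependent H3 genes, the 7 of the variant H3.3 genes (median log2 change -0.034), the 9 of H2A, the 7 of H2B, the 5 of H4 and the 1 of H1 variants did not pass, and all 40 lay between -0.43 and 0.29. The lowest of these was an H4 probe set at -0.43 (limma adjusted p = 0.272), shared by 13 genes. An H3 probe set shared by 4 genes also had every TKO array above every WT array (0.29, limma adjusted p = 0.156). An H3.3 probe set had every TKO array below every WT array (-0.16, limma adjusted p = 0.168). Of all 22180 genes, 937 (4.22%) lay apart with TKO higher and 397 with TKO lower. These counts were not made over the 25335 probe sets.

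Among the variant genes H2ax rose. H2AX is the H2A form that is phosphorylated around DNA breaks. Its arrays were at 11.31, 11.59, 11.05, 11.31 and 11.37 in WT and at 11.75, 11.69, 11.75, 11.58 and 11.73 in TKO. WT 2 lay just above TKO 4, and otherwise every TKO array was above every WT array, with WT 3 the lowest of all. The means were 11.33 ± 0.19 and 11.70 ± 0.07 (SD, n = 5 each) and the log2 change was 0.45 (SE 0.079, 95% interval 0.28 to 0.62, limma adjusted p = 0.00952). The exact two-sided permutation p, which took no account of sex, was 0.0159, and 0.178 after adjustment over all genes. Without WT 3 the change was 0.35 (limma adjusted p = 0.115), and with the score of non-epithelial markers as a covariate it was 0.36 (0.0856).

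The macroH2A genes, whose products carry a large extra domain and are known on the inactive X chromosome and other silent chromatin, did not pass. Macroh2a1 was at 9.58, 9.61, 9.43, 9.62 and 9.84 in WT and at 9.89, 9.63, 9.82, 9.5 and 9.72 in TKO. The female TKO 1 and TKO 3 were the highest TKO arrays, the genotypes overlapped, and the log2 change was 0.19 (95% interval 0.026 to 0.35, limma adjusted p = 0.210). Macroh2a2 was at 5.29, 5.06, 5.01, 5.03 and 5.39 in WT and at 4.98, 5.08, 4.74, 4.58 and 4.89 in TKO, where every array but TKO 2 was below the lowest WT array. Its change of -0.27 (limma adjusted p = 0.309) was the lowest of the 35 genes. Macroh2a3, which RefSeq annotates as a transcribed pseudogene, was at 5.92, 5.96, 6.13, 6.44 and 6.13 in WT and at 6.25, 6.04, 5.67, 6.46 and 6.03 in TKO, a change of -0.081.

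H2A.Z, known at promoters and regulatory regions, is encoded by H2az1 and H2az2. H2az2 was at 9.66, 9.68, 9.36, 9.38 and 9.58 in WT and at 9.60, 9.45, 9.68, 9.40 and 9.60 in TKO, and its log2 change was 0.086 (limma adjusted p = 0.636), and H2az1 had a change of 0.033. The linker variant H1f10 had a change of 0.013. H1f8, known from the oocyte, was at 5.27, 5.55, 5.36, 5.25 and 5.27 in WT and at 5.42, 5.14, 5.18, 5.10 and 5.13 in TKO, and its change was -0.11 (limma adjusted p = 0.655). The TKO arrays other than TKO 1 were below every WT array. The testis genes H1f6 (4.00, 4.21, 3.95, 3.54 and 4.09 in WT, 3.69, 3.87, 4.24, 4.36 and 4.15 in TKO, change 0.064) and H1f7 (3.85, 4.11, 3.82, 3.71 and 3.73 in WT, 3.88, 3.75, 3.76, 3.76 and 4.03 in TKO, change -0.009) lay under the 25th percentile of all genes and overlapped between genotypes.

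Genes that make or place histones were read beside the histone genes. Of 32 genes for histone mRNA transcription and processing, 1 rose and none fell (median log2 change 0.092), beside 2.82% of all genes that were higher and 0.69% that were lower. It was Mif4gd, an adaptor for translation of histone mRNAs, with WT at 8.15 ± 0.16 and TKO at 8.47 ± 0.08 (SD, n = 5 each) and a change of 0.39 (limma adjusted p = 0.0158). Upf1, the helicase that takes part in histone mRNA decay, was next with 0.29 (limma adjusted p = 0.0533). Slbp, which binds the stem-loop, and Npat, which activates the clusters in S phase, were picked out after their values were seen, and had changes of 0.060 and 0.14 that did not pass (limma adjusted p = 0.800 and 0.527).

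Of 37 histone chaperone and deposition genes 3 rose and none fell (median 0.061), beside the same 2.82% and 0.69% of all genes. They were Cenpa, the centromeric H3 variant that the symbol rule does not take in (0.48, limma adjusted p = 0.00965), and the H3-H4 chaperones Asf1b (0.45, 0.0255) and Spty2d1 (0.43, 0.0207). The arrays of these 3 genes lay apart, TKO above WT, as did those of 4.22% of all genes. Of 44 genes of DNA replication in S phase 1 rose and none fell (median 0.11), again beside 2.82% of all genes that were higher. It was Gins1, a subunit of the replicative helicase (0.79, limma adjusted p = 0.0263). Without WT 3, and also with the marker score as a covariate, no gene of these 3 lists passed.

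Of 30 mitosis genes 11 rose and none fell, with a median log2 change of 0.38, beside 2.82% of all genes that were higher, 0.69% that were lower and a median of -0.011. The smallest p-values were those of the chromosomal passenger gene Cdca8 (0.94, limma adjusted p = 0.000255), the topoisomerase gene Top2a (0.77, 0.00118), the kinase gene Aurka (0.58, 0.00124) and the kinetochore gene Cenpf (0.70, 0.00171). The mean over this list was 7.31 to 7.67 on the WT arrays and 7.76 to 7.94 on the TKO arrays, without overlap, while that over the S phase list was 6.95 to 7.19 and 7.06 to 7.17, with overlap. Without WT 3 and with the covariate 4 mitosis genes passed under each. Of 30 genes of multiciliated cells 7 rose, among them Gmnc (1.55), Cdc20b (1.41), Ccno (0.76) and E2f5 (0.55), and 1 fell, with a median of -0.016. Without WT 3 the number that rose was 4, and with the covariate 3. No correlation between histone genes and these lists was computed.

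**Figure D4:**
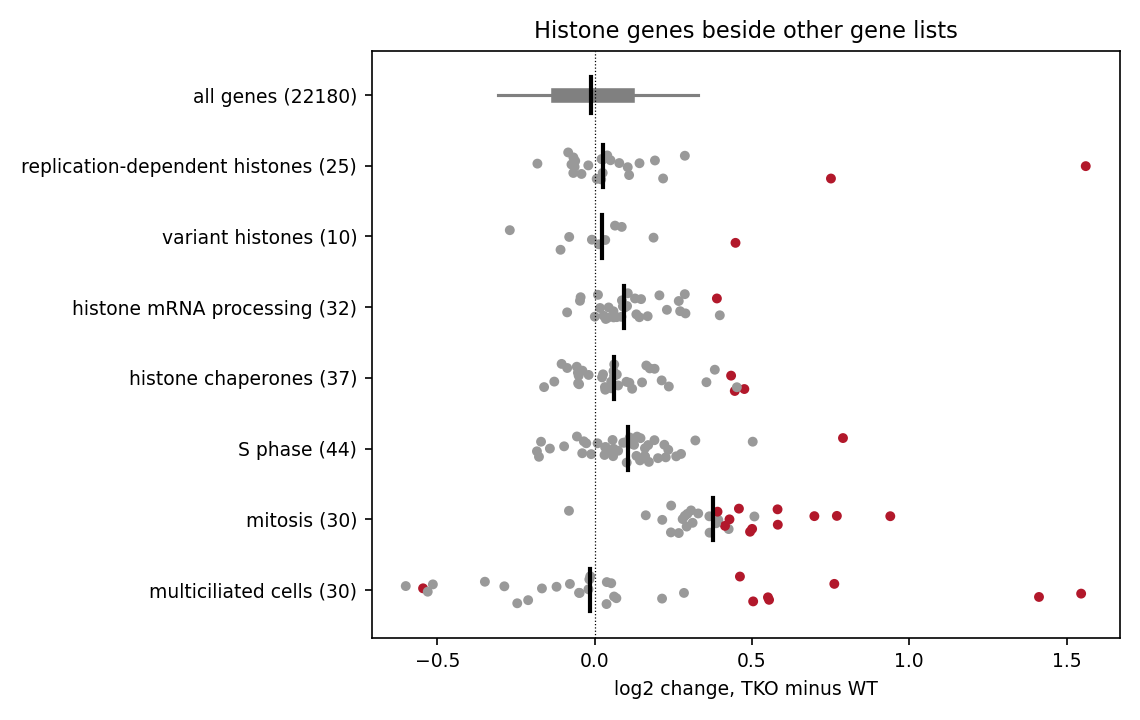
Log2 change, TKO minus WT, of each gene (points) in the histone classes, and in the histone processing, chaperone, S phase, mitosis and multiciliated lists, with the median of each as a bar and genes past an adjusted p of 0.05 in red; the top line gives the spread over all genes. The mitosis list has its median at 0.38, and those of the replication-dependent and variant histone genes at 0.025 and 0.023.

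Of the markers of other tissues in the sections, 3 genes passed the test, all lower in TKO, beside 0.69% of all genes that were lower. The list means overlapped between genotypes. All 12 skeletal muscle genes had changes below 0 (median -0.80), and 2 fell, Tnni2 (-0.86) and Tnnt3 (-1.01). Their mean was 5.42 to 7.07 on WT arrays, highest on WT 3, and 5.28 to 6.27 on TKO arrays. All 14 mesenchyme genes had changes below 0 (median -0.36), and Col3a1 fell (-0.48), with list means of 7.02 to 7.92 in WT and 6.74 to 8.00 in TKO. All 12 endothelium genes were below 0 as well (median -0.26), none past the test. None of the 12 cartilage and bone, 14 leukocyte, 5 erythroid, 12 glia and neuron, or 11 basal cell genes passed. Of 20 general epithelial genes Ovol2 rose (0.42), beside 2.82% of all genes that were higher. The epithelial list mean was 8.51 to 8.70 in WT and 8.48 to 8.61 in TKO. The part of these markers in the histone values was tested only through the covariate given above.

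The H4 genes that rose lay among members that did not pass. In the order of members along GRCm38.p6, H4c8 lies between H4c9 (log2 change 0.021) and H2ac10 (-0.042). H4c1 lies between H4c2 (0.11) and H1f1 (0.026), and none of these neighbouring members passed. Genes found only on shared probe sets were left out of this order, so neighbouring members need not be adjacent genes. The promoter stretch of H4c9 is at chr13:22041313-22041612 and that of H4c8 at chr13:23530794-23531093. All 20 replication-dependent genes on chromosome 13 lie over 89 Mb from the deleted Mir449 genes on the same chromosome, and 2 of them rose. Of the 5 on chromosome 3 none passed; beside the 2.82% of all genes that were higher, 5 genes are too few for a comparison of the chromosomes, and none was made. H2ax lies 6.77 Mb from Mir34b and Mir34c on chromosome 9. Of 145 genes between 5 and 10 Mb from that locus 6 were changed (4.14%), against 11 of 102 nearer than 5 Mb (10.8%) and 33 of 987 farther away (3.34%). The effect of chromosome segments that travel with the deleted loci was not tested.

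Promoters in the RefSeq table matched 31 of the 35 members, and H2ax, H2bc21, H4c14 and Macroh2a3 are named only. Each motif was sought on both strands of the 300 bases, and the share of all 32851 promoters with it is given. In the sequences printed above, TGACGTCA, the letters of the cyclic AMP response element, stands once in H4c8 (70 bases before the start) and at 2 places in H4c1 (98 and 34 bases before). No other histone promoter of the 31 held it, nor did H4c12. It was in 1.79% of all promoters, in 2.32% of those of the genes fitted and in 3.90% (24 of 615) of those of genes higher in TKO. These letters were chosen after the promoters of H4c8 and H4c1 had been read, so their presence there is a description.

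TTTCCCGC, which fits the known E2F site, stands at 4 places in H4c1 and in no other of the 31 histone promoters (1.07% of all promoters). TATAA (24.9%) was in all 6 H4 and all 6 replication-dependent H2A promoters. It was also in 3 of 4 replication-dependent H1, 5 of 7 H2B and 1 of 8 variant promoters. In H4c12 it begins 16 bases before the annotated start, and in H4c8 and H4c1 it begins 12 and 41 bases after it. CCAAT (37.4%) was in all 17 replication-dependent H1, H2A and H2B promoters, in 1 of 6 of H4 and in 5 of 8 variant promoters. ATTTGCAT, the octamer known from H2B genes (1.74%), was in 5 of 7 H2B, 3 of 6 H2A and none of the H1 or H4 promoters. The stretches of H2ac1 and H2bc1 overlap, as do those of H2ac12 and H2bc12, so the same letters can count under both families. AAACACA, known from H1 genes (7.18%), was in 3 of 4 replication-dependent H1 promoters. It was also in 1 of 6 replication-dependent H2A, 2 of 7 H2B, none of the H4 and 1 of 8 variant promoters. A match to letters is not a bound site.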

How the data were processed

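Total RNA of 10 embryos was measured on Affymetrix arrays. The deposited values are log2 values that the authors made with RMA in the Affymetrix Expression Console, per the submitters' processing notes; the sources used here give no version, probe set level or genome build. RMA brings arrays to a common distribution, so a change shared by all RNA would not be seen. Of 41345 probe sets 23521 had 1 symbol in the platform's annotation, 1814 several and 16010 were unnamed here. All 35 members matched RefSeq (GRCm38.p6) by Entrez ID with the same symbol.

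TKO and WT were compared in limma 3.58.1 with R 4.3.3 (genotype and labelled sex, intensity trend, two-sided, Benjamini-Hochberg over 22180 genes). Exact permutation tests of the difference of unadjusted means used all 252 assignments of the arrays and took no account of sex. On simulated arrays (22180 genes, 10 runs, 200 changed genes each) changes of 0.25, 0.5, 1 and 2 were called for 3.4%, 41.6%, 90.8% and 98.8% of genes, with 4.32% of calls false. The simulated noise was independent between genes and arrays, so these shares do not cover variation that genes of an array have in common. Same-numbered arrays were not treated as pairs in the main comparison. With each gene taken relative to its genotype mean, same-numbered WT and TKO arrays correlated at -0.10 to 0.31. Only 1 TKO array correlated best with the WT array of its own number.

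The members and gene lists were chosen with earlier results of these data known. Single-array values are given for members that passed, the 4 largest changes each way and the 3 brightest of each class; other lists give up to 4 that passed, else up to 2 by smallest p. Motifs were counted with Python 3.11.15, and figures drawn with matplotlib 3.10.9. Alternatives were the model without sex, the replicate block, intensity filters, scalings, variance models, array weights, probe set choices, females only, each array left out, marker content and class definitions.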

Additional observations from a re-analysis of the deposited data

Results flagged for a closer look

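In 4 of 70 groups of 5 arrays of a histone gene, 1 array stood far from the other 4 by Dixon's criterion, which chance meets in about 1 of 20 groups. H1f2 was at 10.0071 on TKO 3, with the other TKO arrays at 10.29 to 10.33. H1f8 was at 5.42 on TKO 1, with the others at 5.10 to 5.18. H2ac12 was at 3.60 on TKO 2, with the others at 3.78 to 3.85. H4c14 was at 6.24 on TKO 1, with the others at 5.21 to 5.50. None of these genes passed the test between genotypes.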

How the results depend on the processing

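In the 23 alternatives no called histone gene changed sign, 31 of 35 members were never called, and the class medians stayed between -0.048 and 0.082 (replication-dependent) and between -0.012 and 0.064 (variant) with each array left out. H4c8 was called in 18 of 22 alternatives (log2 change 1.27 to 1.79), H4c1 in 16 of 22 (0.62 to 0.89) and H2ax in 20 of 23 (0.35 to 0.49). With the replicate block 243 genes were lower and 1 replication-dependent gene was higher, H4c8, while H4c1 missed the threshold (0.74, limma adjusted p = 0.0576). With the dimmer 50% of genes left out, which removed H4c8 and H4c1, 1 replication-dependent gene was higher, H2ac21, and with H2ax counted as replication-dependent 0 variant genes were. Among females only, 41 genes were higher and 4 lower, with 0 replication-dependent and 0 variant genes higher. With the score of non-epithelial markers added these numbers were 177, 79, 0 and 0. Leaving out each array gave 153 to 774 genes higher, 10 to 358 lower, 0 to 2 replication-dependent and 0 to 1 variant genes higher. The lowest counts came without WT 3, the only WT male, when the genotype difference rests on females alone. Counts also moved by over 1.5 times without TKO 1 (396 higher, 63 lower), TKO 3 (174 and 44), WT 1 (96 lower), WT 4 (87 lower), WT 5 (358 lower) and TKO 2 (71 lower). For shared probe sets and lists, alternatives were added after the data were seen: without WT 3, 1 shared probe set passed, and the histone processing, chaperone, S phase, mitosis and multiciliated lists had 0, 0, 0, 4 and 4 genes higher, and with the covariate 0, 0, 0, 4 and 3. The share of calls that were higher was 80.4%, 87.1% with arrays centred and 69.1% with the covariate, and over all alternatives it ran from 68.4% without WT 5 to 93.9% without WT 3. The cause of these moves was not tested. No detection calls are given here, and the WT mean of H4c8 lay under the 25th percentile of all genes, 4.58.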
